A study of Homo sapiens with 4 samples.

Results

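Antisense genes carry the name of a gene on the opposite DNA strand followed by the letters AS, and their measured members in 4 human acute myeloid leukemia lines are described here. The genes were chosen from the deposited expression tables as symbols that start with LINC or end in -AS with an optional number, on chromosomes other than X and Y, with at least 1 RPKM (reads scaled to gene length and library size) in at least 1 line. Of 21865 symbols, 20 autosomal ones fitted the pattern of the name and 9 of these passed the level. Among all 20889 autosomal symbols, 12549 passed it. The 9 were HOXA11-AS1, WT1-AS, MCM3AP-AS1, TTC28-AS1, IDI2-AS1, A1BG-AS1, GNAS-AS, ZNRD1-AS1 and CDKN2B-AS1. No symbol in the tables starts with LINC (0 of 21865), so the set consists of named antisense genes alone. Some genes that now carry LINC symbols are listed in these tables under the older prefix NCRNA, and other former names were not counted.

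The study sequenced RNA of MonoMac-1, THP-1, KG1a and HL60 cells with 1 library each, without replicates, all kept in RPMI/Opti-Media with fetal bovine serum. By general knowledge rather than by the labels, KG1a is an immature and HL60 a promyelocytic line, and the MLL-AF9 fusion is found in MonoMac-1 and THP-1, both monocytic. The title of the THP-1 sample is Thp1_tr, and the labels do not say what its ending stands for, so a treatment of that culture cannot be told apart from the line. Lineage, fusion and culture cannot be told apart as sources of a difference between lines, nor can less RNA per cell and fewer expressing cells in such bulk samples.

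The libraries held 6.04 to 13.6 gigabases on genes, with THP-1 the shallowest and MonoMac-1 the deepest. Of 7 monocytic markers looked up, all 7 reached 1 RPKM in both monocytic lines, and 1 did so in KG1a and 2 in HL60. Granulocytic and promyelocytic markers did not set HL60 apart from the monocytic lines. All 6 reached 1 RPKM in HL60, THP-1 and MonoMac-1, summing to 12616, 6494 and 6918 RPKM, and 3 did so in KG1a. Of the 4 markers of immature cells, all 4 reached 1 RPKM in KG1a, against 3 in HL60 and 0 in both monocytic lines. Their summed level was 19.04 RPKM in HL60 and 717 in KG1a. Of 1269 genes at 50 RPKM or more in KG1a, 49 lay below 10% of that level in HL60, and 23 of these lay around the commonest ratio, 2.62%. These genes were chosen for low HL60 values, and whether KG1a RNA is present in the HL60 library was not tested. For some members the HL60 value is also given after 2.62% of the KG1a value, called the KG1a share, was taken off.

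Antisense RNAs are transcribed from the strand opposite a protein-coding gene. Some overlap the body of that gene, and others start close to its start and run away from it, an arrangement called divergent or head-to-head. Some are known to act on the chromatin of their own locus, such as CDKN2B-AS1 (also called ANRIL), which has been linked to Polycomb repression of the CDKN2A and CDKN2B tumor suppressors, and many have no known function. In leukemia cells the HOXA and WT1 loci, which both give rise to antisense RNA, are best known through their protein-coding genes.

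The strand of each member, taken from GENCODE 29 by symbol, was opposite to that of the gene it is named for in 9 of 9 pairs. In 6 pairs the listed spans overlapped and in 3 they lay apart, by 74 (ZNRD1-AS1 and ZNRD1), 191 (HOXA11-AS1 and HOXA11) and 203 bases (WT1-AS and WT1). A head-to-head neighbor was also found for members whose named gene overlaps them. CDKN2B-AS1 starts 299 bases from CDKN2A, TTC28-AS1 108 bases from PITPNB and MCM3AP-AS1 419 bases from LSS. In all, 6 of 9 members (66.7%) had an opposite-strand gene starting upstream within 1000 bases without overlap, against 13.3% of the other autosomal genes at 1 RPKM or more with a known strand. This property was looked up after the values had been seen and does not use the expression values. For WT1-AS, HOXA11-AS1 and ZNRD1-AS1 the neighbor is the gene in the symbol. The share is thus partly set by how antisense genes are named. A1BG-AS1, IDI2-AS1 and GNAS-AS had no such neighbor within that distance.

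The stretch between such a pair of starts lies upstream of both genes. Windows over part or all of it, with 50 bases inside the antisense gene, are shown for 3 pairs as examples. The pairs were chosen for the expression of the members behind them. HOXA11-AS1 was high in THP-1 with its neighbor, MCM3AP-AS1 was the most even member, and TTC28-AS1 varied more than its neighbor. The sequences are RefSeq promoter windows on GRCh38.p14 (250 bases before to 50 after the start of the antisense gene, plus strand), which were found for 6 of the 9 members, and any part inside the neighboring gene was left out. Capitals mark the motifs searched on both strands, namely the GC box with the letters GGGCGG, the box spelled CCAAT after its letters, the TATA box searched as TATAAA, and a motif bound by ETS transcription factors, searched with the letters CCGGAAG. The windows lie at chr7:27185233-27185457 for HOXA11-AS1, chr22:27919257-27919425 for TTC28-AS1 and chr21:46228981-46229280 for MCM3AP-AS1.
HOXA11-AS1: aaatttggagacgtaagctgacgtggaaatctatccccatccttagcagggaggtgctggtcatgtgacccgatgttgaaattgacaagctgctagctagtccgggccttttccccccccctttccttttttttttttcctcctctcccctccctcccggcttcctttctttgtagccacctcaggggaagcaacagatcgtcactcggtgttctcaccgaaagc
TTC28-AS1: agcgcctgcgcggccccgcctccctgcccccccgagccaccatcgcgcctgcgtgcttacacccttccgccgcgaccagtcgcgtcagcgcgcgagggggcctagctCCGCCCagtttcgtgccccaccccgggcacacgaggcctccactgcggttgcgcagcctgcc
MCM3AP-AS1: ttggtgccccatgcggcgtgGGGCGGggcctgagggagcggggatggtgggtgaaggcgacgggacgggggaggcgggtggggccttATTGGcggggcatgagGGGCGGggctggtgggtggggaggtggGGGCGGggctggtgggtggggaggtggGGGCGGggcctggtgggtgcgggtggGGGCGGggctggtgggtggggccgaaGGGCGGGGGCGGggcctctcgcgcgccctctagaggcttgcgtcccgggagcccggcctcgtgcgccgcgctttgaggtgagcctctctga
The 225 bases beside HOXA11-AS1 held 52.0% GC, 8 CG pairs and none of these motifs (0 matches). The 169 bases beside TTC28-AS1 held 75.7% GC, 22 CG pairs and 1 GC box. The 300 bases beside MCM3AP-AS1 held 77.3% GC, 27 CG pairs, 7 GC boxes and 1 CCAAT on the opposite strand. Over 35116 RefSeq windows of 300 bases the median was 58.7% GC with 14 CG pairs, 44.95% held a GC box and 34.6% a CCAAT. The TATA box was found in 11.53% of windows and the ETS motif in 10.3%, and the 3 stretches shown held neither (0 matches). The stretches beside HOXA11-AS1 and TTC28-AS1 are shorter than 300 bases, so their counts do not compare directly with these windows. Untrimmed, the window of HOXA11-AS1 held 12 CG pairs with 52.7% GC and that of TTC28-AS1 36 CG pairs with 72% GC. The examples do not show a relation between base composition and expression. In full windows of 300 bases, CDKN2B-AS1 and WT1-AS, which also differed strongly between lines, had 74% GC with 36 CG pairs and 2 GC boxes and, for the first of 2 WT1-AS starts, 70.3% GC with 24 CG pairs and 1 GC box. The second WT1-AS start had 55.7% GC with 10 CG pairs, and IDI2-AS1 44.7% GC with 6. A match is a string of letters and not a measured binding site, and its absence says only that the letters are not in that stretch.

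The members lay low beside other genes, and which line was highest differed from gene to gene. The highest value of a member lay between 1.24 RPKM (CDKN2B-AS1) and 10.5 RPKM (HOXA11-AS1), with a median of 2.77, against a median of 14.6 for the other 12540 autosomal genes at 1 RPKM or more. These levels were used in the choice of the genes and are a description. At 1 RPKM or more there were 4 members in HL60, 7 in KG1a, 6 in MonoMac-1 and 5 in THP-1, and 1 member, MCM3AP-AS1, was so in every line. Of all 12549 autosomal genes with 1 RPKM in at least 1 line, 81.7% reached it in HL60, 84.5% in KG1a, 86.7% in MonoMac-1 and 87.4% in THP-1. KG1a was the highest line for 4 members, MonoMac-1 for 3, HL60 for 1 and THP-1 for 1. Among all autosomal genes at 1 RPKM or more, 31.1% were highest in KG1a, 24.8% in MonoMac-1, 23.1% in HL60 and 21% in THP-1. The gene length behind the RPKM ranged from 854 bases (A1BG-AS1) to 5408 (TTC28-AS1), with a median of 1976 against 2817 for the other genes. That length covered 3.04% of the listed span for CDKN2B-AS1 and 53.9% for WT1-AS, the extremes of the 9. GNAS-AS and ZNRD1-AS1 lie on the minus strand and the other members on the plus strand.

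**Figure D1:**
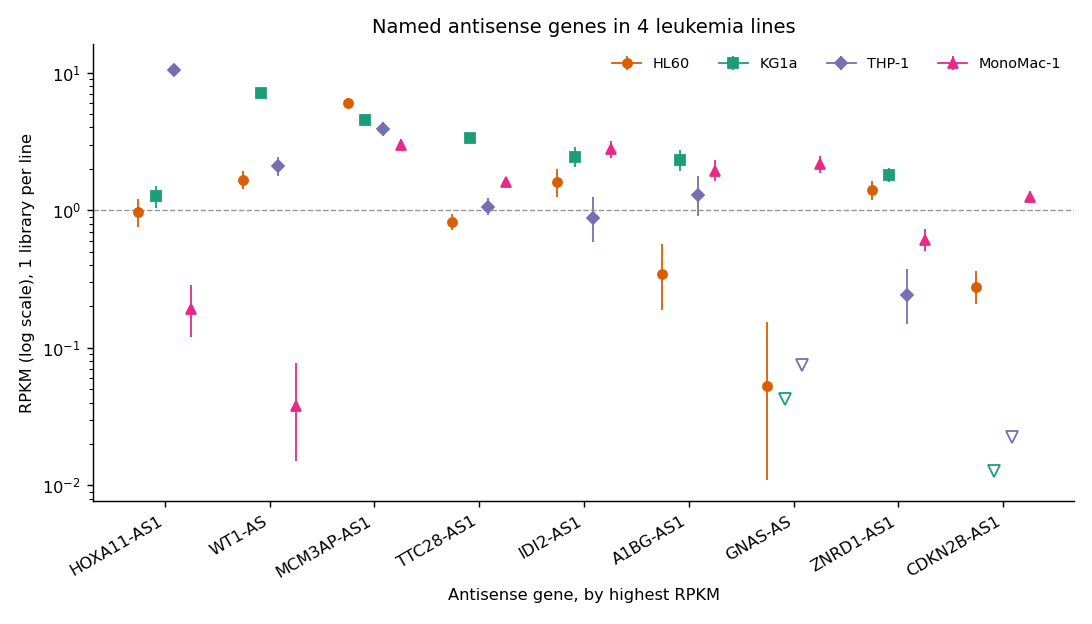
RPKM of the 9 antisense genes in each line on a log axis, with 1 library per line. Bars are 95% counting intervals, open triangles mark the level of 3 fragments where a gene was listed at 0, and the dashed line is 1 RPKM; HOXA11-AS1 in THP-1 (10.5) and WT1-AS in KG1a (7.15) stand highest.

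Intervals in the text are 95% exact Poisson intervals on fragment equivalents (sequenced bases on the gene divided by 200). They cover counting error only and neither duplicate reads nor the spread between cultures. With 1 library per line no test between lines was made, and 2 lines against 2 could not go below a two-sided exact permutation p of 0.333.

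HOXA11-AS1 reached the highest level of the 9 members, in THP-1. It lies at chromosome 7, 27225027 to 27228912 (hg19), beside HOXA11, a homeobox gene at the 5′ end of the HOXA cluster. Its level was 0.966 RPKM in HL60, 1.26 in KG1a, 0.190 in MonoMac-1 (0.121 to 0.285) and 10.5 in THP-1 (interval 9.67 to 11.4). THP-1 exceeded KG1a, the next line, by 8.32 times (interval 6.82 to 10.2) and MonoMac-1 by 55.3 times (36.5 to 87.8). HL60 and KG1a were not separated, at a ratio of 1.31 with an interval of 0.971 to 1.77.

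HOXA11 itself stood at 5.65 RPKM in HL60, 1.26 in KG1a, 0.393 in MonoMac-1 and 12.2 in THP-1. THP-1 was thus the highest and MonoMac-1 the lowest line for both genes, but HL60 lay above KG1a for HOXA11 and not for HOXA11-AS1. The antisense level was 86.4% of that of HOXA11 in THP-1, 100.0% in KG1a, 48.4% in MonoMac-1 and 17.1% in HL60.

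The next gene on that side, HOXA13, was also highest in THP-1, at 10.6 RPKM, with 3.85 in HL60 against 0.00652 in KG1a and 0.0149 in MonoMac-1, values of 1 and 2.94 fragment equivalents. On the other side, HOXA10 and HOXA9 were highest in KG1a, at 25.1 and 93.4 RPKM, and MonoMac-1 stood at 18.3 and 59.7. Within the 5′ HOXA cluster, HOXA11-AS1 therefore shared its highest line with HOXA11 and HOXA13 and not with HOXA10 or HOXA9. The HL60 value of HOXA9, 2.65 RPKM, was 2.84% of that in KG1a, whereas that of HOXA11-AS1 was 76.4% of its own KG1a value and was 0.933 RPKM without the KG1a share.

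**Figure D2:**
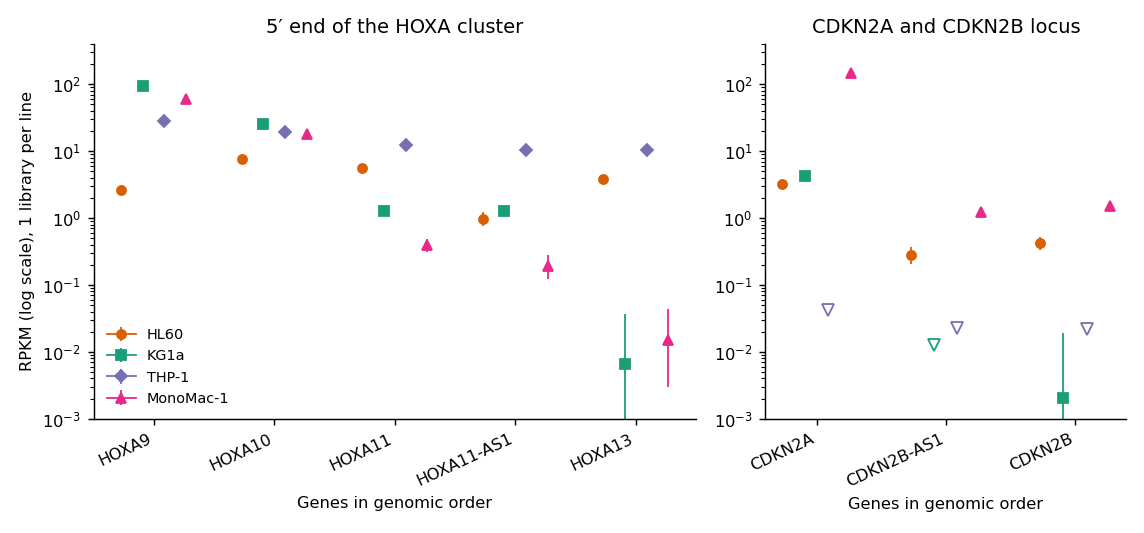
RPKM (log axis) in each line of selected genes in genomic order around HOXA11-AS1 (left) and CDKN2B-AS1 (right), with 95% counting intervals and open triangles at the level of 3 fragments for genes listed at 0. HOXA11, HOXA11-AS1 and HOXA13 were highest in THP-1, and CDKN2A, CDKN2B-AS1 and CDKN2B in MonoMac-1.

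WT1-AS was highest in KG1a and close to 0 in MonoMac-1. It lies at chromosome 11, 32457285 to 32461620 (hg19), upstream of WT1, which encodes a zinc finger transcription factor that many acute leukemias express. WT1-AS stood at 1.66 RPKM in HL60, 7.15 in KG1a (interval 6.72 to 7.61), 2.09 in THP-1 and, on 6.94 fragment equivalents, 0.0377 in MonoMac-1 (0.0151 to 0.0780). KG1a was 3.43 times above THP-1 (2.91 to 4.06), and 190 times above MonoMac-1 (91.4 to 475).

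WT1 showed the same highest and lowest lines, at 9.89 RPKM in HL60, 14.3 in KG1a, 0.499 in MonoMac-1 and 7.45 in THP-1. Its range across lines was 28.6-fold, against 190-fold for the antisense gene. The antisense level was 50.03% of that of WT1 in KG1a, 28.0% in THP-1, 16.8% in HL60 and 7.56% in MonoMac-1. Of the lines with the MLL-AF9 fusion, MonoMac-1 lay far below THP-1 for both genes. Removal of the KG1a share left WT1-AS at 1.47 RPKM in HL60.

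CDKN2B-AS1 was found in MonoMac-1 and, lower, in HL60, and was listed at 0 in KG1a and THP-1. It spans chromosome 9, 21994790 to 22121093 (hg19), with CDKN2B inside its span and CDKN2A next to its start, and these genes encode inhibitors of cyclin-dependent kinases. Its level was 1.24 RPKM in MonoMac-1 (interval 1.12 to 1.38) and 0.279 in HL60 (0.208 to 0.365), a ratio of 4.47 (3.34 to 6.08). In KG1a a count of 3 fragments would have given 0.0128 RPKM and in THP-1 0.0225. The MonoMac-1 value was 97.1 times that level in KG1a and 55.3 times that in THP-1, without regard to its own counting error.

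CDKN2B followed the same pattern, at 0.419 RPKM in HL60, 0.00206 in KG1a, 1.49 in MonoMac-1 and 0 in THP-1, with less than 1 fragment equivalent behind the KG1a value. CDKN2A stood at 3.28, 4.31, 0 and 149 RPKM in HL60, KG1a, THP-1 and MonoMac-1. KG1a therefore had reads on CDKN2A without reads on CDKN2B-AS1, while THP-1 was listed at 0 for all 3 genes. In MonoMac-1 the antisense level was 83.4% of that of CDKN2B and 0.833% of that of CDKN2A.

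GNAS-AS was detected at over 1 RPKM in MonoMac-1 alone, beside a named gene that was abundant in every line. It lies at chromosome 20, 57393973 to 57425958 (hg19), in the imprinted GNAS locus, whose main product is the stimulatory G protein alpha subunit. GNAS-AS stood at 2.16 RPKM in MonoMac-1 (interval 1.87 to 2.48) and at 0.0526 in HL60, where 3 fragment equivalents lay behind the value (0.0109 to 0.154), and was listed at 0 in KG1a and THP-1. MonoMac-1 was 41.0 times above HL60, with a counting interval of 13.8 to 200.5. Its value was 50.8 times the level of 3 fragments in KG1a and 28.9 times that in THP-1, without regard to its own counting error.

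GNAS stood at 130 RPKM in HL60, 160 in KG1a, 182 in MonoMac-1 and 113 in THP-1, a range of 1.62-fold. MonoMac-1 was thus the highest line for both, but GNAS-AS reached no more than 1.19% of the GNAS level there. The 2 spans share 11164 bases. Whether reads of GNAS in those bases were counted for GNAS-AS was not tested.

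A1BG-AS1 had its 4 lines in the same order as A1BG, a plasma glycoprotein gene. Full order was compared in the 7 pairs without tied values, and 1 of them shared it, against 10.9% of other genes and their nearest gene. GNAS-AS and CDKN2B-AS1 were left out of that count, since both were listed at 0 in KG1a and THP-1, and CDKN2B-AS1 and CDKN2B did not differ in the order of their other lines. It lies at chromosome 19, 58863336 to 58865223 (hg19), and 81.0% of its span overlaps A1BG. A1BG-AS1 stood at 0.341 RPKM in HL60 (0.188 to 0.569), 2.31 in KG1a, 1.94 in MonoMac-1 and 1.29 in THP-1. KG1a and MonoMac-1 were not separated by counting error (ratio 1.19, interval 0.920 to 1.53), and both lay above HL60, by 6.76 (3.90 to 12.6) and 5.69 times (3.29 to 10.6).

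A1BG stood at 0.380, 9.19, 3.05 and 4.66 RPKM in HL60, KG1a, THP-1 and MonoMac-1. The antisense share of the A1BG level was 89.9% in HL60 and 25.1% in KG1a. The HL60 value of A1BG was 4.14% of that in KG1a and fell to 0.139 RPKM without the KG1a share, while A1BG-AS1 was left at 0.281. Because most of A1BG-AS1 lies within A1BG and strand handling is not given in the sources used here, reads of these genes may have been counted for both.

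TTC28-AS1 was highest in KG1a and differed from its named gene in MonoMac-1. It spans chromosome 22, 28315364 to 28398667 (hg19), and shares 24666 bases with TTC28, which encodes a tetratricopeptide repeat protein. TTC28-AS1 stood at 0.820 RPKM in HL60, 3.33 in KG1a (interval 3.14 to 3.54), 1.59 in MonoMac-1 (1.48 to 1.72) and 1.06 in THP-1. KG1a was 2.09 times above MonoMac-1 (1.90 to 2.31) and 4.07 times above HL60 (3.52 to 4.73).

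TTC28 stood at 0.752 RPKM in HL60, 4.22 in KG1a, 0.296 in MonoMac-1 and 2.19 in THP-1. MonoMac-1 was thus second for the antisense gene and last for TTC28, and the antisense level was 538% of that of TTC28 there against 48.4% to 109% in the other lines. PITPNB, a phospholipid transfer protein gene that starts 108 bases away, varied less, at 30.6 to 41.2 RPKM, and was highest in HL60, the line with the lowest TTC28-AS1. Without the KG1a share TTC28-AS1 was at 0.732 RPKM and TTC28 at 0.642 in HL60.

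ZNRD1-AS1 followed ZNRD1 with little change in their ratio. Its current symbol is POLR1HASP. It spans chromosome 6, 29968788 to 30028961 (hg19), in the HLA region, and its start lies 74 bases from that of ZNRD1, which encodes a small subunit of RNA polymerase I. ZNRD1-AS1 stood at 1.39 RPKM in HL60, 1.81 in KG1a (interval 1.60 to 2.04), 0.608 in MonoMac-1 and 0.243 in THP-1 (0.150 to 0.374). KG1a exceeded HL60 by 1.30 times (1.07 to 1.59) and THP-1 by 7.45 times (4.75 to 12.3).

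ZNRD1 stood at 52.5, 49.8, 8.55 and 28.2 RPKM in HL60, KG1a, THP-1 and MonoMac-1, a range of 6.14-fold. THP-1 was lowest for both, with MonoMac-1 next, and HL60 and KG1a changed places. The antisense level was 2.15% to 3.64% of that of ZNRD1 in the 4 lines. The span of ZNRD1-AS1 also covers HLA-J, an HLA pseudogene, by 3986 bases, and whether reads of related HLA sequences entered its value was not tested.

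MCM3AP-AS1 was the most even member and the only one at over 1 RPKM in all 4 lines. It lies at chromosome 21, 47649158 to 47671604 (hg19), with 73.8% of its span inside MCM3AP, whose protein binds the replication factor MCM3. It stood at 6.03 RPKM in HL60 (interval 5.55 to 6.54), 4.53 in KG1a, 3.004 in MonoMac-1 (2.74 to 3.29) and 3.92 in THP-1. The highest line was 2.01 times above the lowest (1.78 to 2.27), and KG1a and THP-1 were not separated (ratio 1.16, interval 0.997 to 1.34).

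MCM3AP stood at 23.1, 23.9, 23.02 and 11.8 RPKM in HL60, KG1a, THP-1 and MonoMac-1, so that MonoMac-1 was lowest for both genes. LSS, which encodes lanosterol synthase of cholesterol synthesis and starts 419 bases away in the other direction, stood at 60.8, 34.2, 23.3 and 31.7 RPKM. HL60 was thus the highest line for LSS as for MCM3AP-AS1, while MCM3AP differed little between HL60, KG1a and THP-1.

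IDI2-AS1 was highest in MonoMac-1 and KG1a and lowest in THP-1. It spans chromosome 10, 1068577 to 1090141 (hg19), and overlaps both IDI2, by 3223 bases, and IDI1, by 4178 bases, which encode isopentenyl diphosphate isomerases of the sterol pathway. IDI2-AS1 stood at 1.59 RPKM in HL60, 2.45 in KG1a, 2.77 in MonoMac-1 (2.41 to 3.17) and 0.872 in THP-1 (interval 0.584 to 1.25). MonoMac-1 and KG1a were not separated (ratio 1.13, interval 0.909 to 1.41), and MonoMac-1 exceeded THP-1 by 3.18 times (2.15 to 4.87).

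IDI2 varied by 1.40-fold only, from 1.51 RPKM in KG1a to 2.11 in MonoMac-1. IDI1 stood at 79.7 RPKM in HL60, 66.2 in KG1a, 122 in MonoMac-1 and 45.9 in THP-1. The highest and the lowest line of IDI2-AS1 were thus those of IDI1 as well, whereas IDI2 shared the highest alone. The IDI1 reads in the shared bases were not separated from those of IDI2-AS1.

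Set together, 7 of the 9 members (77.8%) had their highest line in common with the gene they are named for. Among 12300 other autosomal genes at 1 RPKM or more and their nearest gene, that share was 38.9%, and it was 38.9% for neighbors with overlapping spans and 38.9% for those apart. In the comparisons of highest line, lowest line and order, that nearest gene could lie at any level. Every named gene, by contrast, reached 1 RPKM in at least 1 line, so the pairs are not alike in level. An exact 95% binomial interval for the 9 pairs runs from 40% to 97.2%. It takes the pairs as independent draws, which named genes are not, and serves only as the spread for the recomputed shares below. It is no test against the share of other genes. The nearest gene of other genes is also not always an antisense one, so the shares describe these libraries only. The exceptions were MCM3AP-AS1 and ZNRD1-AS1, in which HL60 and KG1a traded places with the named gene. For both named genes the counting intervals of HL60 and KG1a overlapped. Of the 7 members that shared the highest line, IDI2-AS1 and A1BG-AS1 were not separated from the next line by counting error. Their ratios were 1.13 (0.909 to 1.41) and 1.19 (0.920 to 1.53), and the others were separated. For IDI2 itself, MonoMac-1 (1.83 to 2.42) and HL60 (1.45 to 2.12) overlapped. The lowest line was the same in 5 of the 7 pairs without tied values (WT1-AS, A1BG-AS1, MCM3AP-AS1, ZNRD1-AS1 and HOXA11-AS1), and in 40.6% of other genes and their nearest gene. In the 2 tied pairs THP-1, 1 of the lines in which GNAS-AS and CDKN2B-AS1 were listed at 0, was also the lowest line of GNAS and CDKN2B. For 6 overlapping pairs strand handling bears on this count, and their reads cannot be told apart. Of the 3 pairs with separate spans, HOXA11-AS1 and WT1-AS shared the highest line with their named gene and ZNRD1-AS1 did not. Of the 6 members with a head-to-head neighbor within 1000 bases, 4 shared its highest line, where 44.5% of other genes with such a neighbor did.

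**Figure D3:**
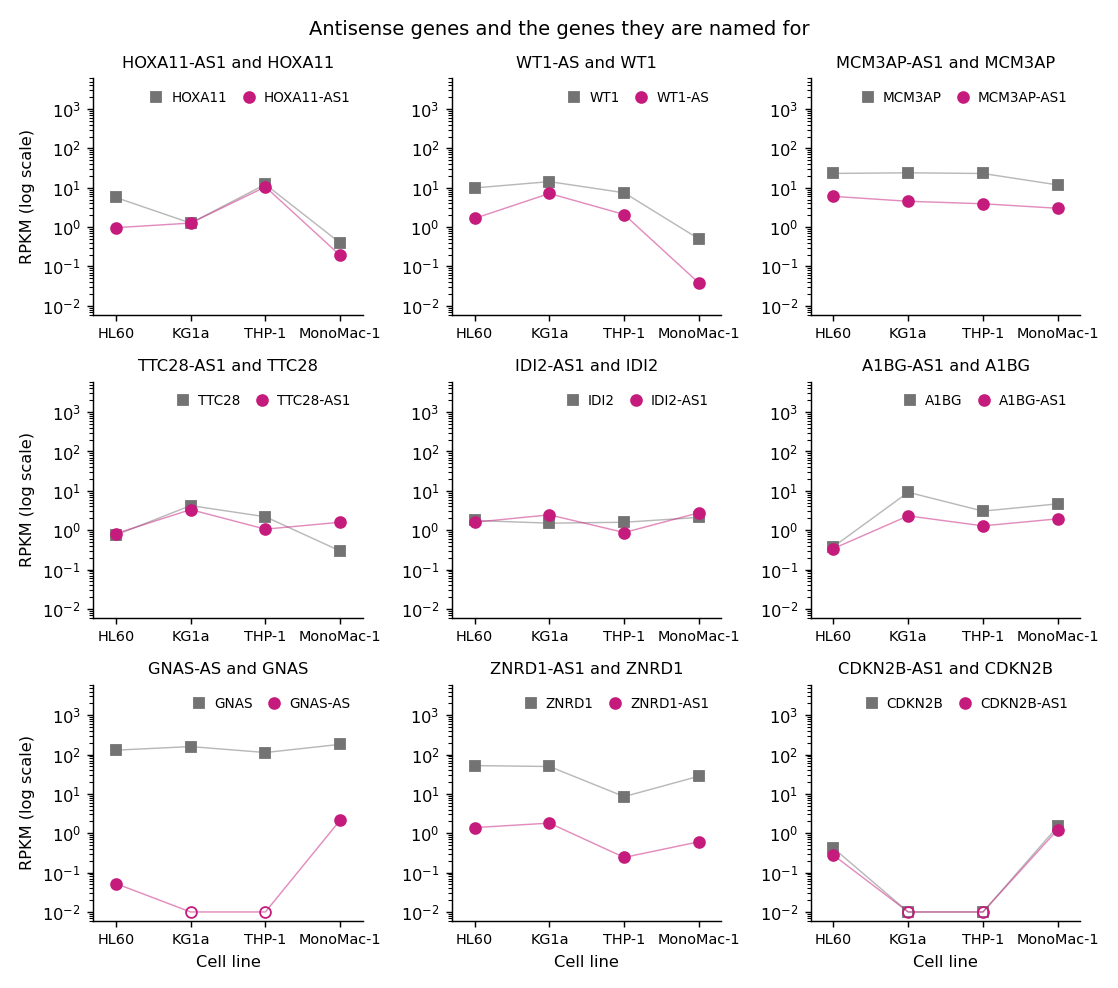
RPKM on a log axis of each antisense gene (circles) and the gene it is named for (squares) in the 4 lines; lines join the points of a gene for legibility, and open symbols at 0.01 stand for values of 0 or below 0.01. The pairs of HOXA11-AS1, WT1-AS, A1BG-AS1 and CDKN2B-AS1 peak in the same line, while GNAS stays between 113 and 182 RPKM.

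The level of a member relative to its named gene, both per kilobase, ranged from 0.0406% (GNAS-AS in HL60, on 3 fragment equivalents) to 538% (TTC28-AS1 in MonoMac-1). IDI2-AS1 exceeded IDI2 in KG1a (163%) and in MonoMac-1 (131%) and lay below it in HL60 (90.5%) and THP-1 (54.8%). The ratio was steadiest for MCM3AP-AS1, at 17.01% to 26.1%, and for ZNRD1-AS1.

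**Figure D4:**
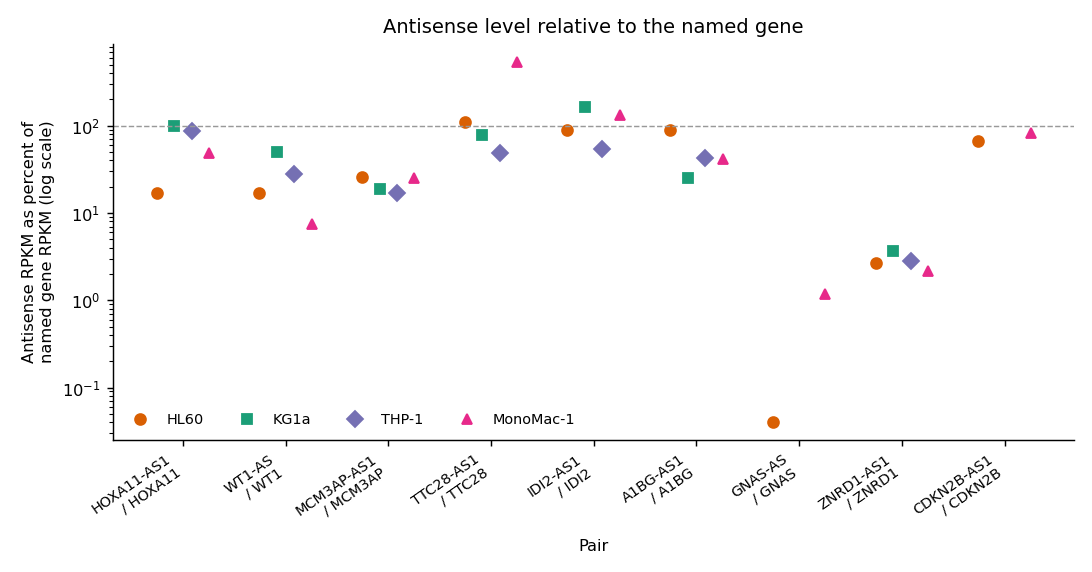
RPKM of each antisense gene as a percentage of the RPKM of its named gene, by line, on a log axis; the dashed line is equality at 100%, and lines in which the antisense gene was listed at 0 have no point. Values for MCM3AP-AS1 and ZNRD1-AS1 lie close together, and those for TTC28-AS1 run from 48.4% to 538%.

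In 7 of 9 members THP-1 and MonoMac-1, the pair that shares the MLL-AF9 fusion, did not lie on the same side of both HL60 and KG1a. By a difference of at least 4-fold in log2(RPKM + 1) between the closest values of the pairs, 0 of 9 members were higher in THP-1 and MonoMac-1 than in HL60 and KG1a (1.37% of all autosomal genes at 1 RPKM or more) and 0 were lower (0.327%). By any margin 0 were higher (22.1% of all genes) and 2 were lower (19.7%), MCM3AP-AS1 and ZNRD1-AS1. For MCM3AP-AS1 the closest values, KG1a and THP-1, were not separated by counting error (ratio 1.16, interval 0.997 to 1.34). Between these lines THP-1 exceeded MonoMac-1 by 55.3 times in both HOXA11-AS1 (36.5 to 87.8) and WT1-AS (26.2 to 140), while GNAS-AS and CDKN2B-AS1 were listed at 0 in THP-1 and were highest in MonoMac-1. Without MonoMac-1, 1 member met the 4-fold rule on the higher side, HOXA11-AS1, on the THP-1 value alone. The share of all genes that did so without MonoMac-1 was not computed.

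At least 8-fold above the other 3 lines on the log2(RPKM + 1) scale were 0 of 9 members, against 2.16% of all autosomal genes at 1 RPKM or more. By line this was 0 members in HL60 (0.175% of all genes), 0 in KG1a (1.12%), 0 in MonoMac-1 (0.414%) and 0 in THP-1 (0.446%). That scale compresses values near 1 RPKM, where most members lie. In plain RPKM 2 members stood at least 8 times above the next line, HOXA11-AS1 in THP-1 and GNAS-AS in MonoMac-1, as did 6.67% of all genes. The median range of a member across lines was 1.25 on the log2(RPKM + 1) scale (0.81 for MCM3AP-AS1 to 3.28 for HOXA11-AS1), against 1.19 for the other genes. With a pseudocount of 0.1 in place of 1 these medians were 2.48 and 1.44, so how the members compare with other genes depends on the pseudocount.

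The 11 other autosomal antisense symbols stayed below 1 RPKM in every line. The nearest to the threshold were BDNF-AS1 at 0.855 RPKM in THP-1, AFAP1-AS1 at 0.807 in HL60 and UCKL1-AS1 at 0.713 in MonoMac-1, against 1.24 for CDKN2B-AS1, the lowest of the members. The remaining 8 were under 0.2 RPKM, and 1 of them, BOK-AS, was listed at 0 in all 4 libraries. AFAP1-AS1 was listed at 0 in KG1a and stood at 0.00201 RPKM in MonoMac-1 and 0.0355 in THP-1, and BDNF-AS1 was higher in THP-1 and MonoMac-1 (0.676) than in HL60 (0.0266) and KG1a (0.190). FAS-AS1, antisense to the death receptor gene FAS, reached no more than 0.0523 RPKM.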

How the data were processed

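RNA from 4 cell lines, 1 library each, was extracted with TRIzol and sequenced from standard Illumina libraries, per the labels' protocols. CASAVA 1.8.2 and hg19 are listed per the submitters' processing notes. Aligner, annotation and strand handling: not given in the sources used here. For each gene the authors deposited an RPKM value and a whole-number coverage signal without a stated unit, read here from its values as sequenced bases on the gene (the commonest low value was 200 in all 4 libraries). In MonoMac-1 12.7% of low values were multiples of 100, against 44.8% to 49.7% in the other libraries, so fragment equivalents are approximate there. Gene lengths and library totals were recovered from the ratio of both values. Where a symbol had several entries (28 symbols), the one with the largest mean was used. The members and lists were chosen with earlier results of these data known.

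Calculations used Python 3.11.15 with pandas 2.3.3, numpy 2.4.6 and scipy 1.17.1, tested on simulated data. A pseudocount of 1 was used on the log2 scale, a minimum of 1 RPKM in at least 1 line, and 12549 autosomal genes passed it. A member's partner was the gene in its symbol, and for other genes the nearest listed gene by span (largest overlap, then smallest gap, leaving out members and small RNA entries). Strands came from GENCODE 29 by symbol and were found for 12136 of those genes. Gene positions are as deposited, on hg19, and promoter windows are on GRCh38.p14. Ratios carry exact conditional binomial intervals on fragment equivalents. The rule for naming genes took the 12 members with the highest mean RPKM, among others, and so covered all 9. No count model was used, since neither value is a read count. Alternatives were other minimum levels, a pseudocount of 0.1, median-of-ratios scaling, removal of the KG1a share from HL60, other partners and leaving out each line.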

Additional observations from a re-analysis of the deposited data

How the results depend on the processing

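Of 77 recomputed values 7 moved beyond 1.5 times the reported count or beyond the stated spread, and 36 of the other 70 were counts of 0 that stayed at 0, which says little of stability. A minimum of 5 RPKM left 3 members. With a minimum of 0.5 RPKM, 12 genes entered, 2 of them highest in HL60 and 2 in THP-1. With a pseudocount of 0.1, 1 member (GNAS-AS) was at least 8-fold above the other lines in MonoMac-1. The share of all genes that were so at that pseudocount was not computed, so this count has no share beside it. The median range of the members became 2.48 on the log2 scale, against 1.44 for the other genes. Leaving out each line in turn gave 55.6% (without MonoMac-1) to 100% (without HL60) of pairs with the same highest line. It gave 0 to 1 members at least 4-fold higher in THP-1 and MonoMac-1, the 1 being HOXA11-AS1 without MonoMac-1, and 0 lower each time. With fewer lines a shared highest line is easier to reach. Neither share was computed for other genes with a line left out, so these values do not compare with the shares over 4 lines. The share of pairs was 58.3% of 12 at a minimum of 0.5 RPKM, 85.7% of 7 at 2 RPKM, 88.9% under median-of-ratios scaling, which moved the libraries by -0.04 to 0.06 on the log2 scale, and under the nearest gene by position, and 77.8% after removal of the KG1a share. Windows of 500 and 2000 bases for the head-to-head neighbor, added after the data were seen, both gave 6 members. No paired analysis was possible because each line has 1 library and the labels carry no replicate numbers. Depth limits GNAS-AS in HL60, at 3 fragment equivalents, and WT1-AS in MonoMac-1, at 6.94; differences between lines have no replicate check.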

Other observations

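Some genes that now bear LINC symbols appear in these tables under NCRNA symbols, and other former symbols of LINC genes were not counted. Of 78 autosomal NCRNA symbols, 75 were matched to 1 current RefSeq symbol, 37 of them to a LINC symbol and 11 to an -AS symbol, and 19 of the 78 reached 1 RPKM in at least 1 line. Among these 19, 5 now have LINC symbols and 3 -AS symbols. This goes by the current symbol alone, and antisense genes under other current symbols were not counted. By mean level the highest of the 19 were NCRNA00188 (SNHG29), at 51.2 to 212 RPKM, and NCRNA00275 (ZFAS1), at 44.5 to 104. Of the 3 with -AS symbols, NCRNA00219 (EPB41L4A-AS1) was the most abundant. It stood at 10.3 RPKM in HL60, 6.97 in KG1a, 7.76 in MonoMac-1 and 16.8 in THP-1. NCRNA00245 (ZNF503-AS2) stood at 0.407, 0, 0.645 and 2.42 RPKM in HL60, KG1a, THP-1 and MonoMac-1. NCRNA00226 (LINC00226) reached 2.34 RPKM in KG1a and 0.0341 in HL60, with 0 listed in both monocytic lines. NCRNA00152 (CYTOR) stood at 4.63 to 11.04 RPKM and NCRNA00116 (MTLN), which encodes a mitochondrial micropeptide, at 3.66 to 5.81. The highest line was KG1a for 6 of the 19, THP-1 for 6, MonoMac-1 for 4 and HL60 for 3, and 0 of 19 were at least 8-fold above the other lines by log2(RPKM + 1).

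Of 33 other noncoding RNA genes looked up, 26 were listed on autosomes under the symbol searched, and 17 of these reached 1 RPKM. ZFAS1, also looked up, is listed as NCRNA00275 (44.5 to 104 RPKM, highest in THP-1) and is not in these counts. The most abundant of the 26 were hosts of small nucleolar RNAs: SNHG6 (105 to 377 RPKM, highest in THP-1), GAS5 (74.5 to 293, THP-1), SNHG5 (45.0 to 283, THP-1) and SNHG1 (49.3 to 195, KG1a). NEAT1 stood at 42.3 to 88.7 RPKM, SNHG8 at 43.2 to 83.6, TUG1 at 28.2 to 64.0 and MALAT1 at 24.3 to 50.7. All 8 genes from SNHG6 to MALAT1 were above the highest antisense member in every line. 1 of the 17 was at least 8-fold above the other 3 lines, HCP5, named here after its values were seen, at 11.97 RPKM in MonoMac-1 against 0.00304 in HL60, 0.140 in KG1a and 0.578 in THP-1.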
